A study of Vulpes lagopus with 12 samples.

Results

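Olfactory receptor genes were followed on 12 arrays hybridised with RNA labelled as Arctic fox (Vulpes lagopus) blood, as a gene family of the nose that is generally taken to be silent in blood. Every probe set of the array with a single gene symbol of the olfactory receptor form (OR, a family number, subfamily letters, a member number) was taken. This gave 407 probe sets of 311 genes among 42924 tested probe sets, and left out 46 further probe sets that carry several symbols of which at least 1 is an olfactory receptor. The choice used names only, and no measured value. Of the 407 probe sets, 380 came from the array's predicted-gene design and 27 from its other designs. They cover 16 receptor families, with 55 genes in class I and 256 in class II.

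The samples were 11 foxes, numbered 1 to 11 here in the order in which they are listed, and 1 array called canine control, and all were run on the Affymetrix Canine Genome 2.0 array. The series concerned polychlorinated biphenyls and mercury in Arctic foxes, but the exposure of single foxes was not given in the sources used here, so the foxes formed 1 group. Age, sex and site were not used here either. Nothing in the labels states that the 11 fox samples came from 11 separate animals, so p-values and SDs measure only the spread between these samples, which may be partly technical. The control carries the same organism and blood labels as the foxes. Its markers did not match blood alone: 11 of 13 measured organ genes were higher in it than in the foxes, such as the liver protein gene ALB at 15.30 against 6.58 and the fat-cell gene FABP4 at 14.15 against 4.50, on the log2 scale. The median of 14 blood cell genes was 7.22 in the control and 9.01 in the foxes. The neutrophil gene S100A8 was at 14.39 in the foxes and at 8.64 in the control, and ALAS2, a haem synthesis gene of red cell precursors, at 13.23 and 6.57. All 14 were lower in the control, and S100A8 and ALAS2 had the largest differences. The smallest were those of NKG7, at 8.90 in the foxes and 8.47 in the control, and CD14, at 10.09 and 9.61. What RNA the control holds was not tested, and a comparison with it describes that array, not a species.

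Olfactory receptors are the largest family of G protein-coupled receptors in mammals. Each mature olfactory neuron of the nose transcribes essentially a single receptor gene, and an odorant bound to it acts through the G protein subunit GNAL, the cyclase ADCY3 and a cAMP-gated channel that contains CNGA2. Class I receptors (families 51, 52, 55 and 56) resemble those of fish, and class II receptors make up the rest. Many members are near-copies of each other, and a probe set whose identifier ends in _s_at, _x_at or _a_at can bind more than 1 transcript. Of the 407 probe sets, 51 end in _s_at, 27 in _x_at and 1 in _a_at. In these bulk samples fewer cells of a type and less RNA per cell cannot be told apart.

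The family sat low in fox blood, but over the whole low to middle range of the array and not at a single floor. The median of the 407 fox means was 6.65 log2 units, with quartiles of 5.77 and 7.51 and a range of 3.63 to 10.94, against a median of 7.14 over all tested probe sets. The median olfactory receptor probe set was at percentile 37.0 of all tested probe sets. Above the array's median stood 156 of the 407, and above its 75th percentile, a level of 8.14, stood 45. The values are deposited log2 signals with no detection call, so no level can be read as presence or absence of a transcript.

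A nearer reference was the predicted-gene design, since most receptor probe sets come from it. Its other 22563 probe sets had a median of 7.01. The array also carries 64 reporter probe sets, identified by the prefix RPTR in the array's own names, and their median was 5.38 with a 10th to 90th percentile range of 4.02 to 7.35. One reporter stood at 14.66, and the next at 8.76. Of the olfactory receptor probe sets, 76 lay below the reporters' median and 124 above their 90th percentile. The receptors thus spanned the reporters' range and ran beyond it.

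**Figure D1:**
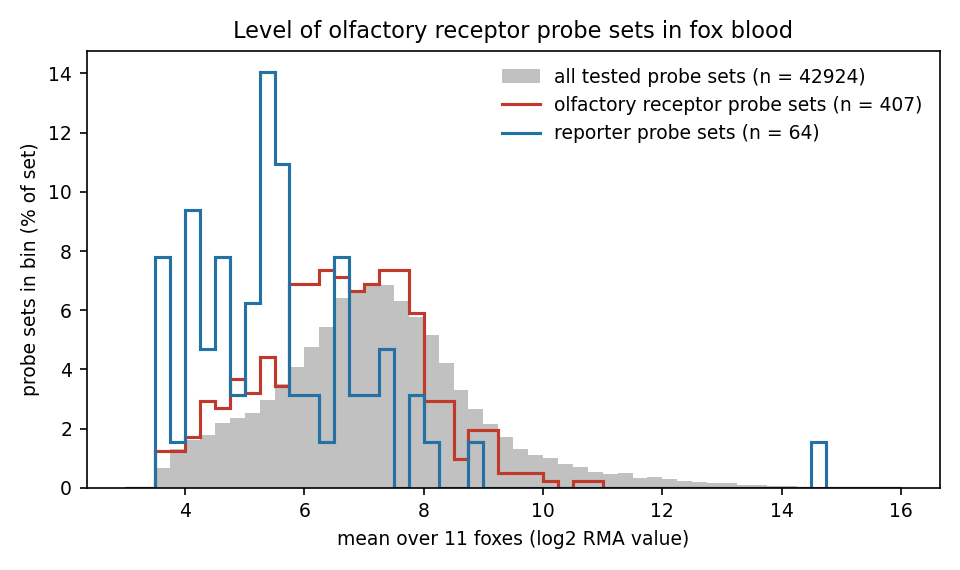
Distribution of fox mean log2 signal for olfactory receptor probe sets, all tested probe sets and reporter probe sets (horizontal axis, log2 RMA value; vertical axis, percent of each set per bin). The olfactory receptors, with a median of 6.65, lie between the reporters at 5.38 and all tested probe sets at 7.14.

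With 1 probe set kept per gene, that of the highest mean, the 311 genes had a median of 6.88. The same choice gave 7.80 for 27 measured receptors of the same rhodopsin-like class that leukocytes use, such as PTGER4, a prostaglandin receptor, at 10.16 and CXCR6, a chemokine receptor, at 5.49. Of the 311 olfactory receptor genes, 63 lay above that median, and 3 of the 27 leukocyte receptors lay below the olfactory receptor median. The ranges overlapped, so a level in this range did not separate a family of the nose from receptors of blood cells. Probe sets differ in how strongly they bind, so these are ranks of signal and not of transcript number. Keeping the highest probe set can also raise genes with several, and the number per gene was not matched between the lists.

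The partners that carry the olfactory signal covered a wide range. Of 12 genes listed for olfactory neurons, some of which also act in other tissues, 10 were measured, with a median of 6.38. Of these 10, 4 lay above the array's median. GNAL, the olfactory G protein subunit, was lowest at 4.47 ± 0.14 (SD, n = 11), and the channel subunit CNGA2 stood at 6.57 ± 0.29. RTP1, which helps receptors reach the cell surface, was highest at 8.49 ± 0.25. The mature neuron marker OMP was among the 2 that were not measured. Of 20 partners listed as more broadly expressed, 16 were measured, with a median of 7.76 and with GNB1, a common G protein beta subunit, at 14.11. The 2 lists are not cleanly separated by tissue, so their medians are not a contrast of restricted with broad genes.

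Opsins, crystallins and taste receptors had higher medians than the olfactory receptors' 6.88, each with 1 probe set per gene. The median was 7.30 for 14 opsin and photoreceptor genes, 7.90 for 15 crystallins (a family that includes members used outside the lens) and 8.23 for 4 taste receptors. TAAR5, the only measured trace amine receptor of the nose, was at 7.27. VN1R4, the only measured vomeronasal receptor, was at 6.16, below the olfactory receptors' median.

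Among the families with at least 10 probe sets, family 1 was highest with a median of 7.36 over 16 probe sets, and family 56 was lowest with 5.57 over 12. Families 8, 7, 51, 2 and 10 had medians of 7.04, 6.98, 6.95, 6.85 and 6.84, families 6, 13 and 52 had 6.69, 6.63 and 6.57, and families 9, 4 and 5 had 6.25, 6.23 and 6.12. Class I probe sets had a median of 6.53 (n = 66) and class II 6.68 (n = 341). Each family's quartiles overlapped those of its neighbours in this order. The 16 probe sets with a symbol ending in P, the mark of a pseudogene in this nomenclature, had a median of 6.78, within the quartiles of the whole family.

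A small group of probe sets stood high in every fox. The fox mean was over 9 for 17 probe sets and over 10 for 3. OR4C59 led with 10.94 ± 1.13 (SD, n = 11), from 9.56 through a median of 10.83 to 12.34. OR6M2B, an _s_at probe set, followed with 10.50 ± 0.22, and its 11 values ran only from 10.08 to 10.77. The leading probe set thus varied widely between foxes and the next did not.

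OR7G8, also an _s_at probe set, had a mean of 10.18 ± 0.29 with a lowest fox of 9.69 and a highest of 10.59. OR10Q1 was at 9.93 ± 0.39, between 9.21 and 10.53. OR6C75D had 2 probe sets at this height, at 9.80 ± 0.50 and 9.69 ± 0.36. The remaining 4 of the 10 highest, OR7R1, OR2W11, OR2T4D and OR7A68, had means of 9.51, 9.49, 9.27 and 9.22 and SDs of 0.19 to 0.27. All 10 lay above the array's 75th percentile.

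At the other end stood OR4C10E, with 2 probe sets at 3.63 and 3.66, OR4S1B at 3.66 and OR2D3E with 2 probe sets at 3.71 and 3.72. OR4S1B ran only from 3.57 to 3.73 over the 11 foxes. Of 14 receptors named whatever their level, mostly receptors described outside the nose in other species, 12 symbols were not measured under those names. OR6A2 was at 7.54 ± 0.21, from 7.19 to 7.82, and OR51E1, which is also known from prostate, ran from 6.68 to 7.45 with an SD of 0.28. Both lay near the middle of the array.

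Probe sets named for the same gene often gave different levels. Of 73 genes with more than 1 probe set, the highest and lowest fox means differed by a median of 1.09 log2 units, by over 1 in 41 genes and by over 2 in 19. OR6C75D had the widest range, from 3.85 to 9.80 over 6 probe sets. OR6M2B had 1 probe set at 10.50 and 1 at 4.68, and OR4C59 had 3, at 10.94, 8.39 and 5.80. Each of these 3 genes therefore combined a probe set near the top of the family with 1 below its median.

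OR2A9B (8.90 and 3.88) and OR9K2C (8.83 down to 4.30 over 5 probe sets) followed in the width of the range. OR7A68 lay at the opposite extreme, with probe sets at 9.22 and 9.21. For the 27 pairs or groups of probe sets built on the same design entry, which differ only in their suffix, the median range was 0.55 and the largest 2.45. Between the 407 probe sets the SD of the fox means was 1.346, while the median SD of a probe set between foxes was 0.20.

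**Figure D2:**
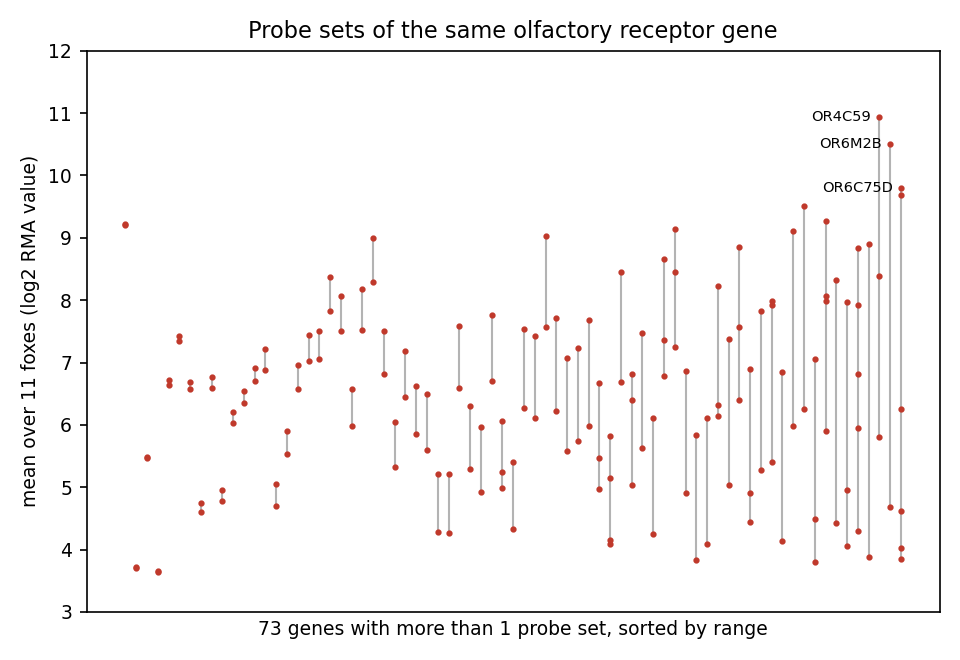
Fox mean log2 signal of every probe set (points) for the 73 olfactory receptor genes with more than 1 probe set, joined by a line per gene and sorted by range; the horizontal axis has no scale. The range reaches 5.94 log2 units for OR6C75D.

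The level of the family differed between arrays. The receptors' median was between 6.66 and 6.78 on foxes 1 to 8, and 6.53, 6.45 and 6.46 on foxes 9, 10 and 11. It was 5.79 on the control. The median of all tested probe sets moved much less, from 7.06 to 7.17 over the foxes and to 6.85 on the control. Foxes 9, 10 and 11 and the control were thus the 4 arrays on which the family lay lowest.

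Other quantities moved with it. All values of an array together had an SD of 1.605 to 1.788 for foxes 1 to 8, 1.93 to 2.02 for foxes 9 to 11 and 2.11 for the control. The reporters' median was 5.31 to 5.72 on foxes 1 to 8, 5.06 to 5.24 on foxes 9 to 11 and 4.72 on the control. The part of the overall spread of an array in the receptors' lower level was not tested. Of the 407 probe sets, 296 (72.7%) had their lowest fox among foxes 9, 10 and 11, against 47.3% of all tested probe sets. Only 6 (1.47%) had their highest fox there, against 28.6% of all. Foxes 2 and 5 held the highest value for 88 and 77 of the receptor probe sets. The share of all tested probe sets that were highest in foxes 2 and 5 is not given here. These counts are therefore not shown to be particular to receptors.

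**Figure D3:**
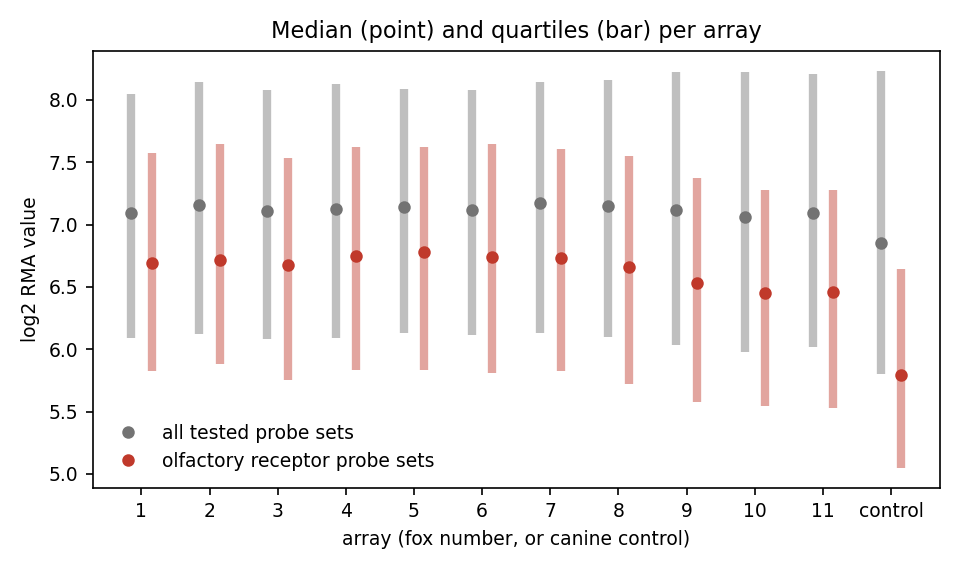
Median (point) and quartiles (bar) of log2 RMA values per array for olfactory receptor probe sets (red) and all tested probe sets (grey), over the 11 foxes and the canine control. The olfactory receptor median is 6.66 to 6.78 on foxes 1 to 8 and 5.79 on the control, where that of all tested probe sets is 6.85.

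Few receptors varied between foxes. The SD over the 11 foxes reached 0.5 in 8 of 407 probe sets (2.0%), where 14.8% of all tested probe sets reached it. Without foxes 9, 10 and 11, 8 receptor probe sets reached it and the share of all probe sets was 6.996%. Among probe sets below the array's median level, 1 of 251 receptors reached it, against 4.33% of all such probe sets. The SD was under 0.3 for 358 receptor probe sets, against 70.5% of all, and the median SD was 0.20 for receptors and 0.22 for all. The 407 levels were also alike between foxes, with Pearson's r between pairs of foxes of 0.930 to 0.992 across probe sets. The probe sets share probes and are not independent. That r is not given here for all tested probe sets, so it is not shown to be particular to receptors.

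OR7A58 varied most. Its _x_at probe set read 11.69, 7.39, 11.60, 8.21, 9.99, 11.00, 8.84, 8.30, 7.60, 6.81 and 7.48 on foxes 1 to 11, with an SD of 1.78, and 6.78 on the control. Its _at probe set read 10.91, 7.20, 10.79, 7.69, 8.07, 10.14, 7.96, 7.80, 6.59, 7.01 and 7.09, with an SD of 1.56, and 6.66 on the control. Foxes 1, 3 and 6 were high on both probe sets, which are built on the same design entry and are not independent readings. The control lay just below the lowest fox on the _x_at probe set (6.78 against 6.81). On the _at probe set it lay inside the low end of the foxes (6.66 against a lowest fox of 6.59).

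The leading OR4C59 probe set read 12.17, 9.88, 11.93, 10.69, 12.30, 12.34, 11.25, 10.83, 9.78, 9.59 and 9.56 on foxes 1 to 11, with an SD of 1.13. Foxes 1, 3, 5 and 6 were high, and foxes 2, 9, 10 and 11 were low. Its other 2 probe sets had SDs of 0.19 and 0.20, so this pattern was read by a single probe set of the gene.

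OR51A24, the only class I receptor of the 8, read 8.88, 6.96, 8.05, 7.22, 8.09, 8.23, 7.53, 7.07, 6.90, 6.90 and 6.82. OR7G9 ran from 6.90 through a median of 7.57 to 8.77, and was high in foxes 1, 3 and 5. OR7C19 ran from 7.40 through 8.04 to 9.26, and was highest in foxes 1 and 6. These followed much the same order of foxes as OR7A58 and OR4C59. Over the 11 foxes the 6 probe sets correlated pairwise with r of 0.77 to 0.96. The highest r was between the OR7A58 probe sets, which share a design entry. These r values describe probe sets that were picked for their spread and that share the same arrays.

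The remaining pair had another order. The _x_at probe set of OR4C28 ran from 6.30 through 7.09 to 8.08, highest in fox 2 and then fox 7. The OR6C75D _at probe set was likewise highest in fox 2, at 10.88, and lowest in foxes 1 and 3, at 9.09 and 9.13. The pair correlated with r of 0.75, and OR6C75D correlated with each of the other 6 with r of -0.61 to -0.32. So the variable receptors followed more than 1 pattern over the foxes.

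**Figure D4:**
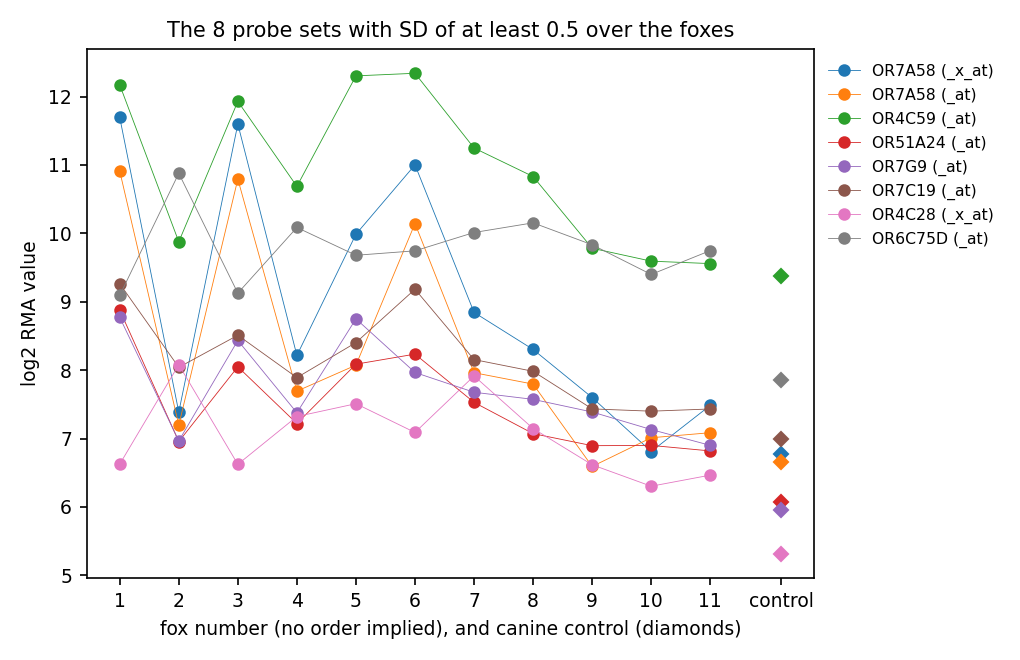
Log2 signal of the 8 olfactory receptor probe sets with an SD of at least 0.5, for foxes 1 to 11 (circles) and the canine control (diamonds); thin lines only guide the eye and imply no order. OR7A58 and OR4C59 are high in foxes 1, 3 and 6, and OR6C75D is highest in fox 2.

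The patterns were not limited to receptors. Likeness was measured as Pearson's r over the 11 foxes against the other 6358 probe sets with an SD of at least 0.5, a rule added after the data had been seen. The OR7A58 _x_at probe set had 148 of these at r above 0.9 and 265 below -0.9. Among the compared probe sets with a single gene symbol, ALKBH7, ARIH2 and CHKA were nearest to it, at r of 0.99, 0.98 and 0.98. OR4C59 had 175 above 0.9 and 672 below -0.9, and CCDC113 was nearest among those with a single symbol, at 0.99. OR4C28 and OR6C75D had fewer companions, with 10 and 16 above 0.9 and 1 and 0 below -0.9.

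No receptor stood out in a single fox by the test used. In 11 limma fits of 1 fox against the other 10, with Benjamini-Hochberg adjustment across the whole table and adjusted p judged at 0.05, 0 of 4477 receptor tests passed, and 0.0123% of all tests did. At an unadjusted p under the same threshold, 1 to 55 receptor probe sets passed per fox. Fox 2 gave the 55, of which 46 were higher in it, at 13.5% of the receptors against 13.1% of all probe sets. Foxes 10 and 11 gave 30 and 33, with 0 higher, at 7.37% and 8.11% of the receptors against 15.8% and 7.05% of all probe sets. With limma's trend and robust settings the outcome changed for OR4C10E in fox 2, at a probe set whose fox mean of 3.66 is among the lowest of the family. The share of all tests under those settings is not given here, so this change cannot be set against the array. A single array against 10 has no replicate of its own.

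In the canine control the family was lower almost as a whole. The control read below the fox mean for 407 of 407 receptor probe sets, where 68.4% of all tested probe sets did, and below all 11 foxes for 384 (94.3%), where 55.1% did. In the limma fit 321 (78.9%) were lower at an adjusted p under the threshold, against 42.1% of all tested probe sets, and 0 were higher, against 18.9% of all, and 0 were higher at an unadjusted p as well. A difference of at least 1 log2 unit downwards that also passed was found for 100 (24.6%), against 12.1%. The fit assumes that the single control varies as the foxes do, and with 1 array against 11 the smallest p an exact permutation test could reach is 0.0833.

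The median difference, control minus fox mean, was -0.78 for the receptors, with a range of -2.22 to -0.06. It was -0.46 for all tested probe sets, -0.58 for the rest of the predicted-gene design and -0.57 for the reporters, of which 62 of 64 were negative, 32 lower by the test and 0 higher. The shift was thus shared by most of the array and by reporters, and was larger for the receptors. The part of this array-wide shift in the receptors' difference was not tested. With each array centred on its median the receptors' median difference was -0.52 and that of all probe sets -0.19, 199 receptors remained lower and 0 higher, and 22 were above zero in size. With each array centred on the receptors' own median, an alternative chosen after seeing the data, 13 receptors were lower and 49 higher, and the medians were 0.076 for the receptors and 0.40 for all probe sets, of which 38.3% were higher. A shift of whole arrays leaves the gap between the receptors and the rest as it is, so these centrings bear on the direction of single calls and not on that gap.

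Among the receptors the difference was larger at higher fox means. In the lowest decile of all probe sets by fox mean, the 55 receptors had a median difference of -0.42 and all probe sets -0.12. In the 7th decile the values were -0.92 for 42 receptors and -0.64 for all, and in the highest decile -1.30 for 8 receptors and -0.27 for all. Receptors lay below the array in each of these bands. Across the 407 probe sets the level and the difference had Pearson's r of -0.57 and Spearman's rho of -0.54, as a description of probe sets that share the same arrays. The fox mean is the level and is also subtracted in the difference, so a negative relation can arise from that alone. How much of it does was not tested. Of the 86 that did not pass, 35 were in the lowest decile, and their median level was 5.30 against 6.84 for those that passed. Of the 86, 63 still read below all 11 foxes.

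**Figure D5:**
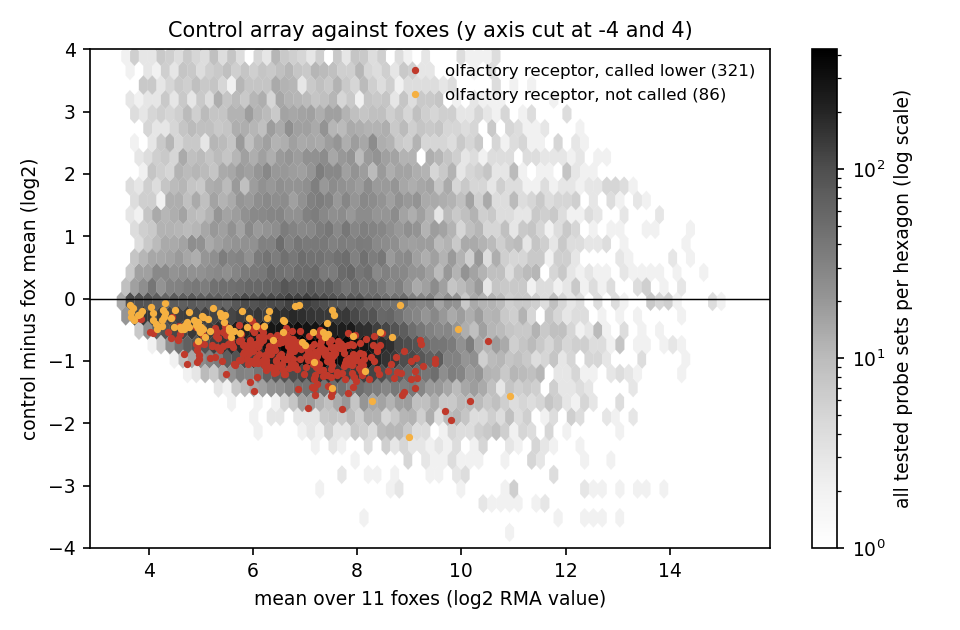
Control minus fox mean difference (vertical axis, log2 units) against fox mean level (horizontal axis, log2 RMA value) for the 407 olfactory receptor probe sets, as points coloured by whether they passed the limma test (321) or not (86), over hexagons shaded by the number of all tested probe sets on a log scale. All 407 points lie below 0, and those that did not pass have the lower median level, 5.30 against 6.84.

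Among the receptors that passed, OR6C75D fell furthest. Its _at probe set read 7.85 on the control against 9.09 to 10.88 on the foxes, a difference of -1.94 (SE 0.48, limma adjusted p = 0.00483). Its _x_at probe set read 7.88 against 9.10 to 10.10, a difference of -1.81 (SE 0.35, limma adjusted p = 0.00112). The ranges did not overlap for either probe set, and both are built on the same design entry. The lowest OR6C75D probe set, at 3.85 in the foxes, differed by -0.33.

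OR7G9 was at 5.95 on the control, below all foxes, with a difference of -1.77 (SE 0.64, limma adjusted p = 0.0312), a call that was lost after quantile normalization (adjusted p = 0.0956) and after centring (0.0755). OR4C28 was at 5.31 against a lowest fox of 6.30 (difference -1.75, limma adjusted p = 0.0189). OR7G8 was at 8.53 against a lowest fox of 9.69 (difference -1.65, limma adjusted p = 0.000584). In each case the control was clear of the foxes.

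OR2AT2 (5.95 against 7.03 to 8.03), OR8S15 (7.31 against 8.28 to 9.64) and the class I receptor OR52H2 (5.64 against 6.88 to 7.86) differed by -1.56, -1.55 and -1.55, with limma adjusted p of 0.00183, 0.00412 and 0.000364. OR52H2 had the smallest of these SEs, at 0.25, and another probe set of it differed by -1.18. With arrays centred on the receptors' median, OR6C75D (_x_at) and OR52H2 kept their calls among these 8 probe sets, and the other 6 did not. OR6A2 differed by -0.91 (limma adjusted p = 0.00349). OR51E1 differed by -0.78 (limma adjusted p = 0.0271), but not after quantile normalization (0.121) or centring (0.113). OR6M2B, the second highest receptor, read 9.82 against 10.08 to 10.77 (difference -0.69, limma adjusted p = 0.021), and lost its call after quantile normalization (difference -1.53, 0.0615), after centring (0.149) and with limma's trend and robust settings (0.0994). OR7A68, at -0.74 (limma adjusted p = 0.00726), lost it only after centring (0.0602) among the alternatives that keep the array as reference.

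Of the 8 receptor probe sets with an SD of at least 0.5, those of OR7G9, OR4C28 and OR6C75D passed, and those of OR7A58 (both probe sets), OR4C59, OR51A24 and OR7C19 did not. OR7A58 differed by -2.22 with an SE of 1.68 (limma adjusted p = 0.263), and OR4C59 by -1.56 with an SE of 1.06 (limma adjusted p = 0.213). Without foxes 9, 10 and 11 the difference was -2.05 for OR4C59, -0.68 for OR10Q1, -1.68 for OR51A24 and -1.43 for OR7C19. The median difference without them was -0.85 for all receptor probe sets and -0.47 for all tested probe sets. A wider difference was thus not particular to these genes. Foxes 9, 10 and 11 were the lowest for OR4C59. The 5 lowest probe sets of the family had differences of -0.34 to -0.10, none of which passed, although OR4S1B, at -0.21, did with limma's trend and robust settings (adjusted p = 0.0366).

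Class I and class II had median differences of -0.81 and -0.78, with 52 of 66 and 269 of 341 probe sets lower, beside the 42.1% of all tested probe sets. Family medians ran from -0.66 in families 9 and 56 to -0.92 in family 51 among families with at least 10 probe sets. No difference between classes or families was tested.

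The gene lists outside the family differed in direction on the control. With 1 probe set per gene, the background was 44.5% of all 15115 genes lower and 18.5% higher. Of the 10 olfactory neuron genes, 8 were lower, 0 higher and 2 did not pass, with a median difference of -0.88. CNGA2 differed by -1.27 (limma adjusted p = 0.00291), RTP1 by -0.90, and GNAL by -0.38 without passing (0.0615). Of the 16 broad partners 11 were lower and 5 did not pass (median -0.65), and of the 27 leukocyte receptors 22 were lower and 5 did not pass (median -0.97, with the platelet and microglial receptor P2RY12 at -3.77). Opsins and photoreceptor genes had 11 of 14 lower (median -0.79), taste receptors 4 of 4 (median -0.95), and TAAR5 and VN1R4 were both lower, with differences of -1.10 and -1.22. Crystallins had 8 lower, 3 higher and 4 that did not pass (median -0.58), blood cell genes 8 of 14 lower (median -1.47), and organ genes 11 higher and 2 lower (median 8.20). The olfactory receptors' median of -0.85 with 1 probe set per gene lay among those of the sensory and leukocyte lists.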

How the data were processed

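Per the submitters' processing notes, the authors used RMA and Affymetrix Expression Console, and the deposited values are on a log2 scale. Neither the software versions nor the set of arrays that RMA was run on is stated there. There were 43035 probe sets, with no missing value. After 111 Affymetrix control probe sets were left out, 42924 were tested, including 64 reporters. Gene symbols came from the platform annotation supplied with the series: 29254 tested probe sets had 1 symbol, 439 several and 13231 none. The precision of each value is limited by the number of arrays. No receptor sequence is printed: 0 of 311 symbols matched the Arctic fox RefSeq table.

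The control was set against the 11 foxes, and each fox against the other 10, with limma 3.58.1 in R 4.3.3 (lmFit and eBayes, Benjamini-Hochberg over all tested probe sets, threshold 0.05), tested on simulated data. Level and spread between foxes were described without a test. Tables used Python 3.11.15 with pandas 2.3.3. Receptor probe sets were named by rule: the 10 highest and 5 lowest fox means, the 8 largest SDs, the 8 largest differences in each direction among those that passed with a control outside all foxes (none was positive), and 14 fixed symbols; other names in the text were chosen after their values were seen. Members, lists and the choice of foxes 9, 10 and 11 were made with earlier results of these data known. Alternatives covered the filter, normalization, variance model, probe sets per gene, suffixes, thresholds and left-out foxes.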

Additional observations from a re-analysis of the deposited data

How the results depend on the processing

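Against 321 receptor probe sets lower on the control, 126 of 143 were lower after a filter on low values (42.4% of all probe sets under it), 229 after quantile normalization, 199 after centring arrays on their medians, 100 with a difference of at least 1 log2 unit required, and 13 after centring on the receptors' median. The 0 higher became 49 under that last centring, chosen after seeing the data. Over all tested probe sets, 18091 lower and 8092 higher became 12648 and 7755 after quantile normalization, 9914 and 9348 after centring, and 557 and 16427 after centring on the receptors. The median difference of -0.78 was -0.95 with the filter, -0.58 after quantile normalization, -0.52 after centring and 0.076 after centring on the receptors. Leaving out each fox gave a median difference of -0.81 to -0.77 for the receptors, beside -0.46 to -0.45 for all tested probe sets. The median level of 6.65 was -0.47 relative to each array's median. The 8 variable receptors were 49 at an SD of 0.3, 3 at 0.75 and 16 after quantile normalization (29.5%, 6.99% and 11.9% of all probe sets), 7 to 9 without single foxes, and 8 without foxes 9, 10 and 11 (6.996% of all). For each fox against the others, trend and robust settings changed the outcome for a probe set of OR4C10E. The share of all tests under those settings is not given here, so that change cannot be set against the array. Differences that changed sign were, after centring on the receptors, OR6M2B (0.17), OR10Q1 (0.37), OR7A68 (0.12), OR4C10E (0.76 and 0.57), OR4S1B (0.65), OR2D3E (0.71 and 0.52) and OR51E1 (0.079). After centring on array medians they were OR4C10E (0.17), OR4S1B (0.059) and OR2D3E (0.11), and after quantile normalization OR4C10E (0.026). The cause was not tested. No paired analysis was possible because the control is a single array and the fox numbers only name samples. With no detection call, signal over background is unknown, and 1 control array limits every difference.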

Other observations

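Of 380 receptor probe sets of predicted-gene design, 305 were lower on the control, with a median difference of -0.80, beside 11406 of the other 22563 probe sets of that design, with a median of -0.58. Of the 27 of other designs, 16 were lower, with a median of -0.61, beside 42.1% of all tested probe sets. Their median levels in the foxes were 6.66 and 6.27. OR9K2C combined both outcomes within a gene, in values chosen after they were seen: its highest probe set, at 8.83 in the foxes, differed by -0.11, and another at 7.92 differed by -1.42.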
